A study of Danio rerio with 8 samples.

Results

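Transcript levels of wild-type (WT) zebrafish embryos were compared between 30% epiboly, in the late blastula, and 60% epiboly, in mid-gastrulation. Epiboly is the spreading of the blastoderm over the yolk cell, and the percentage states how far the yolk is covered. The 4 WT arrays were taken by their labelled genotype and stage from the 8 arrays of the series, and all 12447 probe sets that are not controls were followed. Each array held RNA of 120 pooled whole embryos obtained by crossing AB with TÜB fish and collected at 4.7 hours (30%) or 7 hours (60%) after fertilisation, with 2 arrays per stage described as biological duplicates. The other 4 arrays came from MZspg embryos of the same 2 stages, which lack maternal and zygotic function of spg, the locus of pou5f3, and carry its m793 allele. They entered the estimate of spread and 1 test of the difference between genotypes. Fertilisation was in vitro or by natural crosses staged at the 4-cell stage, and the sample labels do not give the route of each array. Nothing in the labels says whether the duplicates came from separate crosses, so the p-values measure the spread between these pools. In whole embryos, fewer cells of a type and less RNA per cell cannot be told apart.

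The interval covers 2 known transitions. The egg loads the embryo with maternal transcripts, which are degraded in waves after the zygotic genome is activated, partly by deadenylation and by the microRNA family miR-430. In the same hours the blastoderm margin internalises, mesoderm and endoderm separate under Nodal and Fgf signals, Bmp and Wnt signals pattern the ventral side and the posterior, and the dorsal organizer secretes Bmp antagonists. The enveloping layer, an outer epithelium, and the yolk syncytial layer, nuclei within the yolk cell's surface, are extraembryonic tissues that take part in epiboly.

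Signals are linear intensities, and the cells that hold a value share nearly the same quantiles on every array. Each change is thus relative to the other transcripts of an array. Changes are differences of log2(signal + 9), which understates the change of dim genes. Testing was limited to the 7375 probe sets with a signal of 41.03, the 40th percentile, or more on at least 2 of the 8 arrays. A probe set dim at 1 stage in both genotypes thus entered only through the other stage. A probe set is called, and its gene said to rise or fall, when its two-sided p from limma, adjusted by the Benjamini-Hochberg method over all tested probe sets, lay under 0.05. An array cell listed without a value is called empty. Signals at or below 24.62 are called low, since 95% of signals whose replicate cell was empty lay there. Unless said otherwise, values are given in the order 30% replicate 1, 30% replicate 2, 60% replicate 1 and 60% replicate 2. In that order, the median log2(signal + 9) of the tested probe sets was 7.208, 7.117, 7.193 and 6.989, lowest on 60% replicate 2.

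The duplicates resembled each other more than the other stage, with correlations across probe sets of 0.951 at 30% and 0.952 at 60%. The 30% arrays were not alike in their distance from the later stage. Replicate 1 correlated at 0.795 and 0.829 with the 60% arrays, and replicate 2 at 0.871 and 0.871. Spike-in controls were brightest on replicate 2 of the 60% stage (geometric mean 532) and on replicate 2 of MZspg at 60% (595.5), against 59.7 to 164 on the other 6 arrays. Markers of tissues that form after gastrulation were sparse: of 4 on the array, 3 (the muscle gene mylpfa, the neuronal gene elavl3 and the pancreatic gene prss1) were low or empty on all WT arrays, and the muscle actin actc1a lay between 32.5 and 66.2.

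Between the stages, 1013 of 7375 probe sets changed (13.7%). They comprised 413 that were higher at 60% epiboly (5.6%) and 600 that were lower (8.14%). With each array centred on its median, 536 were higher and 600 lower. In a fit with a term for spike-in brightness, described below, 340 were higher and 315 lower. At an adjusted p under 0.01 by limma, 56 were higher and 37 lower. Both the size and the direction of the excess thus varied with the setting. Transcripts that fell were mostly present at a middle level at 30% and dim at 60%, with a median signal of 174 going to 49.7, whereas those that rose went from a median of 35.4 to 156. The median called change was 1.71 upward and -1.54 downward on the log2 scale, beside a median of -0.07 over all tested probe sets. On this scale large changes ran upward. At least 4-fold, 120 probe sets rose and 86 fell, and at least 8-fold, 20 rose and 0 fell. The scale adds a constant to each signal, so it shrinks the folds of dim genes in both directions. In signal alone, the kinase gene prkcda fell more than 8-fold, from a mean of 137.2 to 10.3. Folds of signal alone were not counted. The arrays of the stages lay apart for all of the 1013, and for 4644 of all tested probe sets (63%). Lack of overlap in a called gene, where stated below, therefore adds nothing to its call. In a gene that was not called it is likewise no sign of a change, since most tested probe sets show it. Both 30% arrays were low for 138 of the 413 that rose, and both 60% arrays for 142 of the 600 that fell. An unadjusted p under 0.05 was reached by 2307 probe sets, where 368.75 would be reached by chance.

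**Figure D1:**
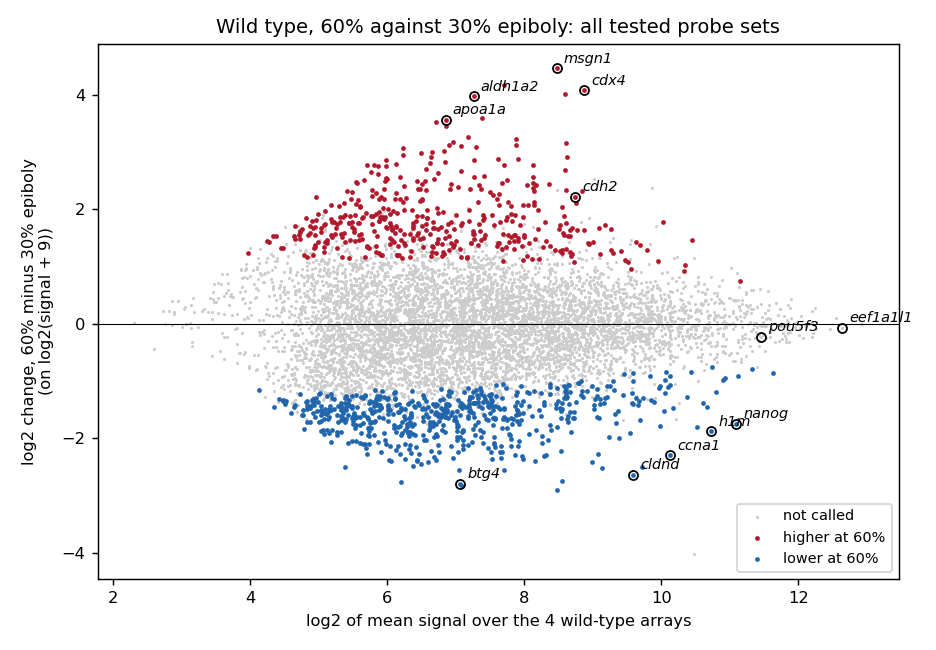
Log2 change from 30% to 60% epiboly in wild type (vertical axis) against the log2 of the mean signal over the 4 wild-type arrays (horizontal axis), 1 point per tested probe set. The 413 red points are called higher and the 600 blue points called lower at 60%. The largest rises, such as msgn1, cdx4 and aldh1a2, reach about 4 log2 units, while no called fall passes 3.

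The plot of change against level shows this asymmetry, with red points reaching farther from 0 than blue points. Counted by gene, with the brightest probe set standing for each of 5219 named genes, 710 changed (13.6%), of which 245 rose (4.69%) and 465 fell (8.91%). The gene shares are the background for the lists below. The lists were chosen with earlier results of these data known, so their shares are a description and not a test. The median change over all tested genes was -0.11, and the middle 50% of genes lay between -0.65 and 0.39. Among the called genes with more than 1 tested probe set, 2 of 71 had another probe set of the opposite sign.

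The calls rested on every WT array, and most of all on 30% replicate 1. With it left out, the 30% stage was represented by its replicate 2 alone, which was assumed to vary like the other groups. No probe set then passed the adjusted threshold (lowest adjusted p = 0.0676 by limma), though 1262 reached an unadjusted p under 0.05. Of the called probe sets, 390 of the 413 and 528 of the 600 still did so, and all 1013 had the same sign. Without 30% replicate 2 there were 368 calls, without 60% replicate 1 there were 67, and without 60% replicate 2 there were 158. A further fit held a term that marked the WT and MZspg replicate 2 arrays at 60%, whose spike-ins were brightest. With this spike-in term 655 probe sets passed, of which 340 were higher and 315 lower, and 580 of these were among the 1013.

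Signals of 30% replicate 2 lay between those of 30% replicate 1 and the 60% stage more often than not. Replicate 2 was nearer to the 60% mean for 286 of the 413 probe sets that rose (69.2%) and for 507 of the 600 that fell (84.5%). The median log2 change of the risers was 1.84 measured from replicate 1 and 1.58 from replicate 2. That of the fallers was -1.77 and -1.35. The labels give both arrays the same stage and time.

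**Figure D2:**
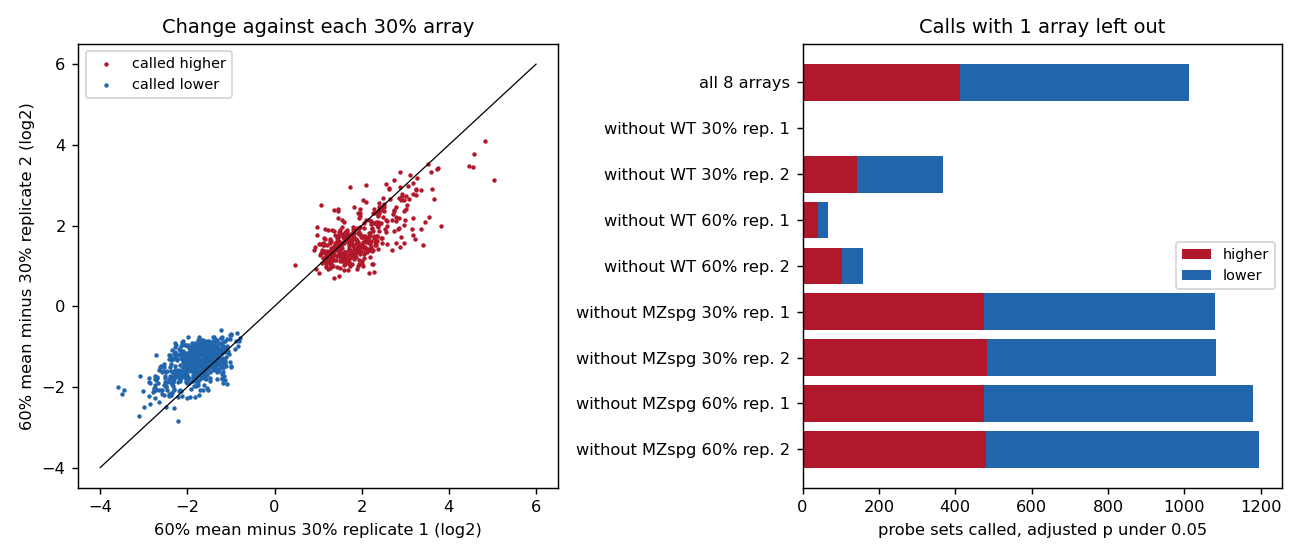
Left, the log2 change of each called probe set measured from 30% replicate 1 (horizontal axis) and from 30% replicate 2 (vertical axis), with the line of equality. Right, the number of probe sets called higher (red) and lower (blue) with all 8 arrays and with each array left out; the bar is absent without wild-type 30% replicate 1 and longest without an MZspg 60% array.

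In the panel of changes, the blue points lie mostly above the line of equality and the red points more often below it. Both therefore sit nearer to 0 when measured from replicate 2. Every gene called below lost its call without 30% replicate 1. For each gene list or group of lists, the counts in the fits without 30% replicate 2, without 60% replicate 1 and without 60% replicate 2 are given in that order, as counts with 1 array left out. The range of a list median is given over the 26 settings of the analysis, the reported one included. Beyond that array, 36 of the 413 that rose and 10 of the 600 that fell passed whichever array was left out.

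Among probe sets that carry 1 gene symbol, the largest rises were those of msgn1, cdx4, bhmt and aldh1a2. The mesogenin gene msgn1, a helix-loop-helix factor of presomitic mesoderm, had signals of 15.36 and 31.74 at 30% and of 744.2 and 630.2 at 60% epiboly (log2 change 4.46, SE 0.685, adjusted p = 0.0063 by limma). The caudal-type homeobox gene cdx4, which acts in posterior patterning, had 18.1 and 92.85 against 973.4 and 795.3 (log2 change 4.08, SE 0.597, adjusted p = 0.00582). The 60% signals of both genes lay far above those at 30%, and cdx4 was the less even of the 2 between its 30% arrays. The enzyme gene aldh1a2, whose product makes retinoic acid, was low on both 30% arrays (4.79 and 18.23) and reached 319.2 and 271.8 (log2 change 3.97, SE 0.516, adjusted p = 0.00509). The gene bhmt, for a methyltransferase that uses betaine to remake methionine, had 22.35 and 58.3 against 631.7 and 841.6, a log2 change of 4.01. These 4 genes rose at least 8-fold and passed in the 7 fits that kept 30% replicate 1.

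The other 11 genes among the 15 with the largest rise had log2 changes of 3.02 to 3.60. The annexin gene anxa1c went from 13.98 and 19.84 to 417.7 and 218.4, and the keratin gene krt17 from 44.25 and 97.87 to 974.1 and 446.7. The apolipoprotein gene apoa1a was empty on 30% replicate 1, had 12.61 on replicate 2, and reached 244.2 and 197.2. Both annexin and apolipoprotein transcripts were thus low at the start. The mitochondrial carboxykinase gene pck2, empty on 30% replicate 1 and at 11.69 on replicate 2, reached 326.8 and 119.3. The hexokinase gene hk1 went from 25.89 and 16.26 to 207.5 and 292.1. The T-box gene tbx16l (13.57, 27.57, 318.8 and 221.7), the forebrain LIM homeobox gene lhx5 (36.2, 38.63, 532.4 and 337.2) and the ephrin gene efnb2b (21.02, 28.87, 377.4 and 201.5) encode regulators or cell-surface signals. The remaining 3 were ckap4, for a membrane protein of the endoplasmic reticulum, the ubiquitin-conjugating enzyme gene ube2e2 and btr30, with log2 changes of 3.18, 3.02 and 3.11. All 15 genes also passed with the spike-in term.

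The 15 largest falls included 4 genes of the oocyte and egg list. The gene btg4, whose product recruits the CCR4-NOT deadenylase to maternal transcripts in mouse, had 371.2 and 118.8 at 30% and 19.32 and 26.7 at 60% epiboly (log2 change -2.79, SE 0.654, adjusted p = 0.0217 by limma). The claudin gene cldnd, of a tight-junction family, had 1530 and 1133 against 182.5 and 228 (log2 change -2.64, SE 0.351, adjusted p = 0.00509). Its stages lay far apart in comparison with the gap between its duplicates, while the 30% arrays of btg4 were uneven. The RNA-binding protein gene lsm14b had 448.2 and 281.4 against 59.67 and 47.33 (log2 change -2.55, SE 0.391, adjusted p = 0.0063). The gene slbp2, for an oocyte-type binding protein of histone mRNA, had 164.4 and 106.3 against 17.67 and 19.45, a log2 change of -2.36.

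The other 11 of the 15 were of diverse roles. The kinase gene prkcda had 202.5, 71.86, 9.819 and 10.78, and inka1a, for an inhibitor of the kinase Pak4, had 758.7, 1176, 173.9 and 140.1. The supervillin gene svila, for an actin-binding protein, had 226.7, 82.53, 14.65 and 23.62. Of these 3 genes, inka1a was higher on 30% replicate 2 than on replicate 1, unlike the other 2. The homeobox gene mxtx2, which acts in the yolk syncytial layer upstream of Nodal signals, had 205.5, 97.93, 11.31 and 32.92. The gene gtf3ab, for a transcription factor of 5S ribosomal RNA genes, had 490.4, 366.6, 68.45 and 81.44. It was the 1 gene of these 15 that did not pass with the spike-in term. The others were zgc:113424, zgc:56231, zgc:123010, cdr2l, fam110b and ripor3, with log2 changes between -2.74 (zgc:113424) and -2.39 (ripor3).

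**Figure D3:**
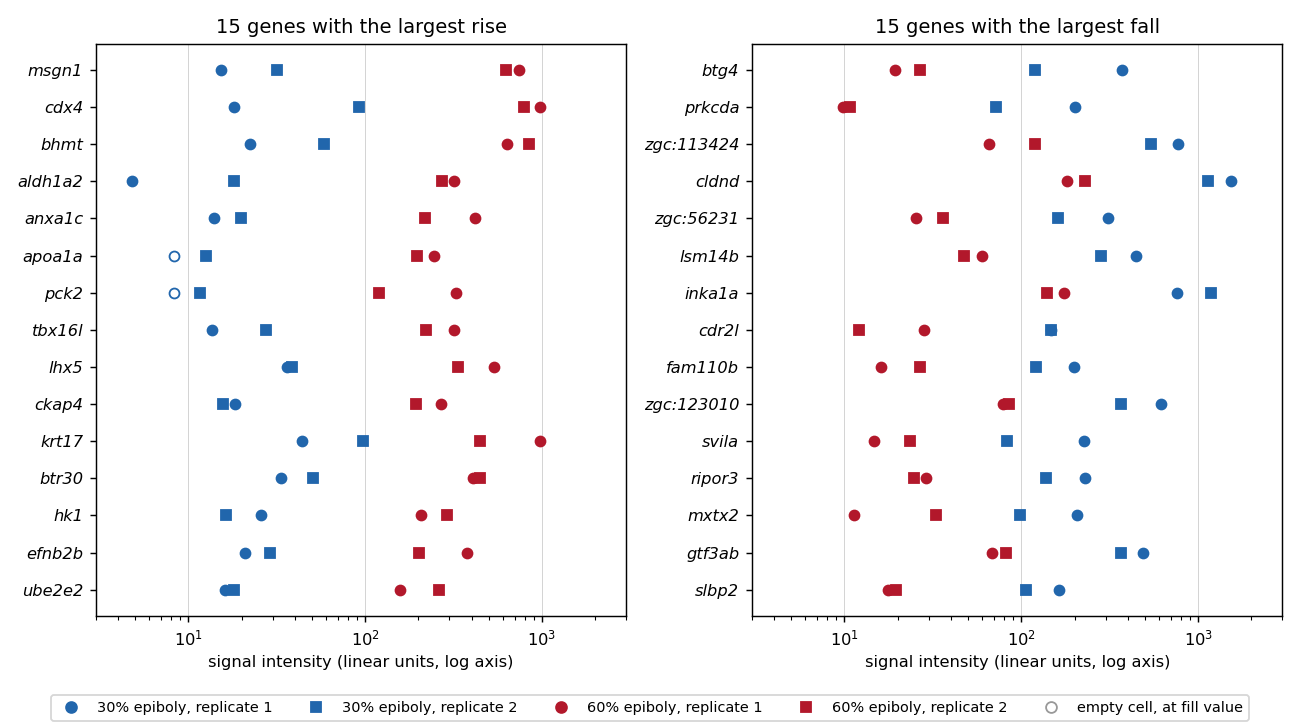
Signal intensity on each wild-type array (log axis) for the 15 genes with the largest rise (left) and the 15 with the largest fall (right). Blue marks are 30% and red marks 60% epiboly, circles replicate 1 and squares replicate 2, and open marks are empty cells drawn at the fill value. The 30 genes were chosen among called genes whose stages do not overlap.

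The plot of signals for these 30 genes shows how the blue 30% marks spread: for most genes the square of replicate 2 lies on the side of the red 60% marks. Of the 20 probe sets that rose by at least 3 log2 units, 4 rose by at least 4.

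In the reported fit, all called genes of mesoderm and of the tailbud rose. Of 22 tested members of the list, 7 rose and 0 fell, 31.8% against the 4.69% of all genes that rose, and 15 did not pass. The array holds 33 members, and those below the filter were not tested. All risers but apela would have failed the filter on the 30% arrays alone, so the filter partly sets this share. The median log2 change was 1.1, beside -0.11 over all genes, and ran from 0.11 to 1.54 over the settings. The lowest values were 0.11 when probe sets with any empty cell were dropped and 0.20 after quantile normalisation of the rest. Besides msgn1, cdx4, aldh1a2 and tbx16l, the somite segmentation factor gene mespaa went from 5.832 and 8.979 to 127.1 and 81.37 (log2 change 2.76, adjusted p = 0.00509 by limma). The forkhead gene foxc1a of paraxial mesoderm went from 8.795 and 14.21 to 149.5 and 79.61 (log2 change 2.54). The seventh was apela, for a small secreted peptide that acts on the apelin receptor in mesendoderm, at 166, 291.2, 563.1 and 545.5 (log2 change 1.30, adjusted p = 0.0293). It was chosen after its values were seen. With 1 array left out, the list held 8, 4 and 6 risers. With the 4 WT arrays alone, it held 9 risers and 1 gene that fell.

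Several other genes of the mesoderm and Wnt lists did not pass and were higher on 30% replicate 2 than on replicate 1. The T-box gene tbxta, the zebrafish brachyury, had 59.31 and 162.5 at 30% and 332.1 and 280.8 at 60% (log2 change 1.54, adjusted p = 0.0998 by limma). The homeobox gene eve1 had 49.09 and 218.6 against 673.2 and 484.4 (log2 change 2.33, adjusted p = 0.0894). The segmentation clock gene her7 had 6.205 and 57.19 against 104.1 and 136.4 (log2 change 2.02, adjusted p = 0.0614). In these 3 genes 30% replicate 2 lay above replicate 1, and both 60% arrays lay above both 30% arrays. The Notch ligand gene dlc (5.158, 46, 93.02 and 99.26) and the Wnt target gene sp5l (67.21, 289.7, 821.3 and 901.1) had the same order, with adjusted p = 0.0915 and 0.0529. Apart from tbxta, these genes were chosen after their values were seen. By contrast, fgf8a, a margin Fgf ligand gene, stood at 106, 154.3, 146.3 and 132.6, and its stages overlapped.

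Among genes of the dorsal organizer and axial mesoderm, 4 of 18 tested rose (22.2%) and 0 fell. The shares over all genes were 4.69% and 8.91%. The median log2 change of the list was 0.74 (0.45 to 1.11 over the settings). The homeobox genes otx2b and otx2a, of the anterior neural plate and prechordal region, went from empty and 5.026 to 102.3 and 93.62, and from 13.28 and 29.19 to 127.9 and 66.45. The forkhead gene foxa2, of axial mesoderm and endoderm, had 50.02 and 36.57 against 211.3 and 113.8 (log2 change 1.67, adjusted p = 0.0305 by limma). The stages of all 3 lay apart. The homeobox gene hhex, a repressor in dorsal yolk syncytial layer and endoderm, had 12.19, 17.49, 79.45 and 64.18 (log2 change 1.76). The genes chrd, gsc and noto did not pass. The Bmp antagonist gene chrd stood at 337.2, 316.4, 546.3 and 359.5 (log2 change 0.43, adjusted p = 0.522), gsc at 269, 514.9, 438.8 and 560.7 (0.40, adjusted p = 0.535) and the notochord gene noto at 478.2, 483.3, 323.3 and 267.4 (-0.69, adjusted p = 0.15). The stages of gsc overlapped and those of chrd did not. When 1 array was omitted, the list held 1, 0 and 1 risers.

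In the Nodal and endoderm list 3 of 20 tested genes rose (15%) and 2 fell (10%), beside 4.69% and 8.91% of all genes. The share of falls was thus near that of all genes. The list median of -0.06 lay on both sides of 0 over the settings (-0.19 to 0.35). The genes that rose encode endoderm transcription factors. The Sox factor gene sox32, needed for endoderm, had 208.1 and 306 against 979.7 and 690.7 (log2 change 1.67, adjusted p = 0.0295 by limma), and gata6 had 93.05 and 125.2 against 342.7 and 417.3 (1.73, adjusted p = 0.0362). With foxa2, these were the 3. The stages did not overlap in either gene. The endoderm marker sox17 was empty on both 30% arrays and low at 60% (12.1 and 11.7), and was not tested. The genes that fell were mxtx2 and gdf3, the maternally supplied Vg1-type partner of Nodal ligands, which had 1829 and 1594 against 621 and 590 (log2 change -1.48, adjusted p = 0.0118). The Nodal antagonist gene lft1 (75.78, 116, 197.1 and 112.5) did not pass, and its stages overlapped. In the fits lacking 1 array, 0 members rose, and 1, 0 and 0 fell.

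On the ventral side, 7 of 30 tested genes of the Bmp list rose (23.3%), 1 fell (3.33%) and 22 did not pass. For all genes the shares were 4.69% and 8.91%. The list had a median log2 change of 0.84 (0.62 to 0.93 over the settings). The ligand gene bmp4 had 23.76 and 19.69 at 30% and 91.67 and 63.48 at 60% epiboly (log2 change 1.48, SE 0.359, adjusted p = 0.0235 by limma). The gene bmper, for a Bmp-binding protein, had 11.27 and 19.83 against 164 and 207.5 (log2 change 3.0, adjusted p = 0.0063), and szl, the ventral inhibitor sizzled, had 35.93 and 35.72 against 209.3 and 244.6 (2.39, adjusted p = 0.00509). Neither gene overlapped between stages, and the 30% arrays of szl were nearly equal. The Bmp target gene id3, for an inhibitor of helix-loop-helix factors, had 42.72, 45.58, 334.7 and 227.6 (log2 change 2.42), and the ventral factor gene gata2a 163.2, 146.5, 464.3 and 758.7 (1.88). The receptor genes went opposite ways: bmpr1ab rose (35.49, 27.07, 78.82 and 93.2; log2 change 1.24, adjusted p = 0.0375) and bmpr1ba fell (77.96, 37.12, 12.23 and 14.85; -1.49, adjusted p = 0.0305). The former was named after its values were seen, and cdx4 was the seventh riser. The epidermal factor gene foxi1 had 76.83, 65.81, 192.9 and 179.7, apart between stages but not called (adjusted p = 0.0591). Once 1 array was removed, 4, 3 and 5 members rose.

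Neural patterning genes rose in 6 of 22 tested cases (27.3%) and fell in 1 (4.55%), beside 4.69% and 8.91% of all genes. The median log2 change was 0.40 (0.08 to 0.54 over the settings). The array holds 55 members of the list, and those below the filter were not tested. None of the 6 risers would have passed the filter on the 30% arrays alone, so the filter partly sets this share. The SoxB1 gene sox2, a factor of the neural plate, had 9.999 and 42.72 against 225.4 and 152 (log2 change 2.63, adjusted p = 0.00966 by limma). The Iroquois gene irx1b had a mean signal of 22.87 ± 10.99 against 132.6 ± 0.442 (SD, n = 2; log2 change 2.2, adjusted p = 0.00928). The hairy-related repressor gene her3 was low on both 30% arrays, with 7.511 and 11.83, and had 124.9 and 88.26 at 60% (log2 change 2.62, adjusted p = 0.00509). In all 3 the 60% signals lay above the 30% signals by a wide margin. The other risers were otx2a, otx2b and her9. The gene that fell was her5, a hairy-related gene of the midbrain region and of endoderm, with 146.1 and 122.3 against 37.88 and 11.85 (log2 change -2.19, adjusted p = 0.0227). The zinc-finger gene zic2a did not pass (119.4, 191.7, 356.7 and 235.7). With 1 array left out, 3, 1 and 4 members rose.

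Of 14 Hox and Cdx genes on the array, cdx4 alone reached the tested range. It rose with each of the 3 arrays left out in turn. The signal of the others stayed under the filter, and they were not compared.

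Among Notch pathway genes, 4 of 23 tested rose (17.4%) and 2 fell (8.7%), beside 4.69% and 8.91% of all genes. The share of falls was thus near that of all genes. None of the 4 risers would have passed the filter on the 30% arrays alone. The median log2 change was 0.74 (0.16 to 0.89 over the settings). The ligand gene dla was empty on both 30% arrays and had 77.37 and 76.97 at 60%, which is at least 3.13-fold higher when set against the low-signal limit (adjusted p = 0.0107 by limma). The ligand gene jag1a had 13.55 and 17.03 against 50.97 and 53.72 (log2 change 1.34, adjusted p = 0.0295). Both ligand transcripts were low at 30% and even between the 60% arrays. The repressor genes her3 and her9 also rose, her9 from 11.9 and empty to 57.24 and 40.08. The falls were her5 and the Groucho-type co-repressor gene tle3a (80.19, 51.62, 18.72 and 9.892). The receptor gene notch1a stood at 78.18, 112.4, 150.7 and 69.4, with overlapping stages. When 1 array was omitted, 3, 1 and 2 members rose.

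In the Fgf list 1 of 12 tested genes rose (8.33%, beside 4.69% of all genes). It was spred1, for an inhibitor of Ras and Erk signalling (76.19, 50.61, 187.9 and 174.2, log2 change 1.41, adjusted p = 0.0294 by limma). The feedback phosphatase gene dusp6 had 147.5, 290.4, 437.7 and 440.3 and did not pass (adjusted p = 0.131). In the Wnt list 5 of 31 tested genes rose (16.1%) and 0 fell, beside 4.69% and 8.91% of all genes. Its median log2 change was 0.57 (0.19 to 0.81 over the settings). The receptor genes fzd8b (9.836, 9.325, 85.25 and 30.55) and fzd10 (empty, 16.1, 68.57 and 56.29), the cadherin-type planar polarity gene celsr1a (9.473, 18.29, 75.18 and 42.25) and the target gene sp5a (26.25, 55.67, 133.5 and 118.2) had log2 changes of 1.72, 1.77, 1.55 and 1.5. Each of these 4 was apart between stages. The fifth, the LIM-domain cofactor gene ldb1a, lay just inside the threshold (adjusted p = 0.0499). The feedback gene axin2 did not pass (105.3, 192.7, 325 and 258). In the fits lacking 1 array, 0, 0 and 2 Wnt members and 0 Fgf members rose.

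Genes of adhesion, matrix and cell movement rose in 9 of 43 tested cases (20.9%) and fell in 0. Of all genes, 4.69% rose and 8.91% fell. The median change of the list was only 0.03 and lay on both sides of 0 over the settings (-0.18 to 0.30). The N-cadherin gene cdh2 had 115.5 and 180.9 at 30% and 769 and 650.9 at 60% epiboly (log2 change 2.22, SE 0.462, adjusted p = 0.0149 by limma). The E-cadherin gene cdh1 had 636 and 748.7 against 623.6 and 485.4 (log2 change -0.32, adjusted p = 0.486). Thus cdh2 rose several-fold while no change of cdh1 was called. The laminin gene lamb1a of basement membranes had 73.49, 123.8, 541.1 and 582.4 (log2 change 2.45), and the collagen prolyl hydroxylase gene p4ha2 had 27.46, 40.19, 207.3 and 206.1 (2.35). The collagen chaperone gene serpinh1b had 21.95, 23.52, 183.2 and 128.1 (log2 change 2.35), and crtap, for a partner of collagen prolyl hydroxylation, had 12.12, 12.93, 131.5 and 94.2 (2.48). The stages of these 4 genes were far apart. The ephrin genes efnb2b and efna5a, of cell-surface signals, and the chemokine gene cxcl12b (20.67, 10.7, 116.7 and 50.98) completed the list with apela. The fibronectin gene fn1a stood at 24.14, 28.63, 51.65 and 26.82, with overlapping stages. The genes crtap and cxcl12b were named after their values were seen. Once 1 array was removed, 5, 0 and 1 members rose.

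Of the enveloping layer and epidermis list, 8 of 36 tested genes rose (22.2%) and 1 fell (2.78%), beside 4.69% and 8.91% of all genes. The median log2 change was 0.49 (0.28 to 0.75 over the settings). Besides anxa1c and krt17, the risers were 3 genes for desmosomal plaque proteins, another annexin gene, a protease gene and an Ets factor gene. The plakophilin genes pkp3a (80.15, 121.1, 465.3 and 459) and pkp1b (12.54, 10.68, 173.5 and 51.75) had log2 changes of 2.13 and 2.35, and the desmoplakin gene dspa (39.65, 64.33, 316.2 and 163.1) one of 1.99 (adjusted p = 0.0305 by limma). The annexin gene anxa1b had 8.846, 17.81, 129.6 and 72.44. The stages of these 4 genes lay apart, and pkp1b was uneven between its 60% arrays. The protease gene capn9 and the Ets factor gene elf3, named after their values were seen, had log2 changes of 1.42 and 1.68. The protease inhibitor gene spint1b fell (111.2, 123.6, 36.12 and 59.72; log2 change -1.18, adjusted p = 0.0457). The bright keratin krt4 of the enveloping layer had 1639, 2284, 3179 and 2513 and did not pass (adjusted p = 0.365). The summed signal of the layer's markers on the array ran from 6437 to 8473 at 30% and from 10640 to 12840 at 60% epiboly, and its part in the other results was not tested. With 1 array left out, 3, 0 and 5 members of the list rose.

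In the yolk syncytial layer list 3 of 17 tested genes rose (17.65%) and 1, mxtx2, fell (5.88%), beside 4.69% and 8.91% of all genes. The median log2 change was 1.06 (0.60 to 1.49 over the settings). Besides apoa1a and gata6, the transferrin gene tfa, for an iron carrier of plasma, rose from 13.85 and 7.337 to 161.3 and 96.78 (log2 change 2.80, adjusted p = 0.00617 by limma). The abundant apolipoprotein gene apoeb had 1817 and 2614 against 3297 and 3353 (log2 change 0.61, adjusted p = 0.238). Its stages lay apart, though the change was small. The nuclear receptor gene hnf4a was at 16.27, 19.79, 49.42 and 38.36 (adjusted p = 0.0898). The summed signal of the layer's markers ran from 2132 to 3349 at 30% and from 4887 to 5265 at 60%. When 1 array was omitted, 2 members rose in each case.

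The list of pluripotency-type and SoxB1 factors held 20 tested genes, of which 2 rose (10%) and 2 fell (10%). Of all genes, 4.69% rose and 8.91% fell, so the share of falls was near that background. The list median of 0.08 lay on both sides of 0 over the settings (-0.29 to 0.19). The homeobox gene nanog, which with pou5f3 and sox19b acts in activation of the zygotic genome, had 3614 and 3103 at 30% and 1053 and 935.7 at 60% epiboly (log2 change -1.75, adjusted p = 0.0124 by limma). The gene pou5f3 itself had 2850 and 3166 against 2957 and 2214 (log2 change -0.23, adjusted p = 0.523), so its stages overlapped. The brightest probe set of sox19b had 146.7, 250, 74.71 and 40.93 and did not pass (log2 change -1.64, adjusted p = 0.0658 by limma). Its stages were apart, as were those of 63% of tested probe sets. The other tested probe set of sox19b was called lower. The Krüppel-like gene klf2a fell (193.8, 132.5, 36.62 and 44.19; log2 change -1.78). The risers were sox2 and prdm14, for a PR-domain regulator, which was low at 30% (3.979 and 6.541) and had 64 and 49.88 at 60% (log2 change 2.21, adjusted p = 0.00724). In the fits lacking 1 array, 2, 1 and 3 members rose and 0 fell.

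**Figure D4:**
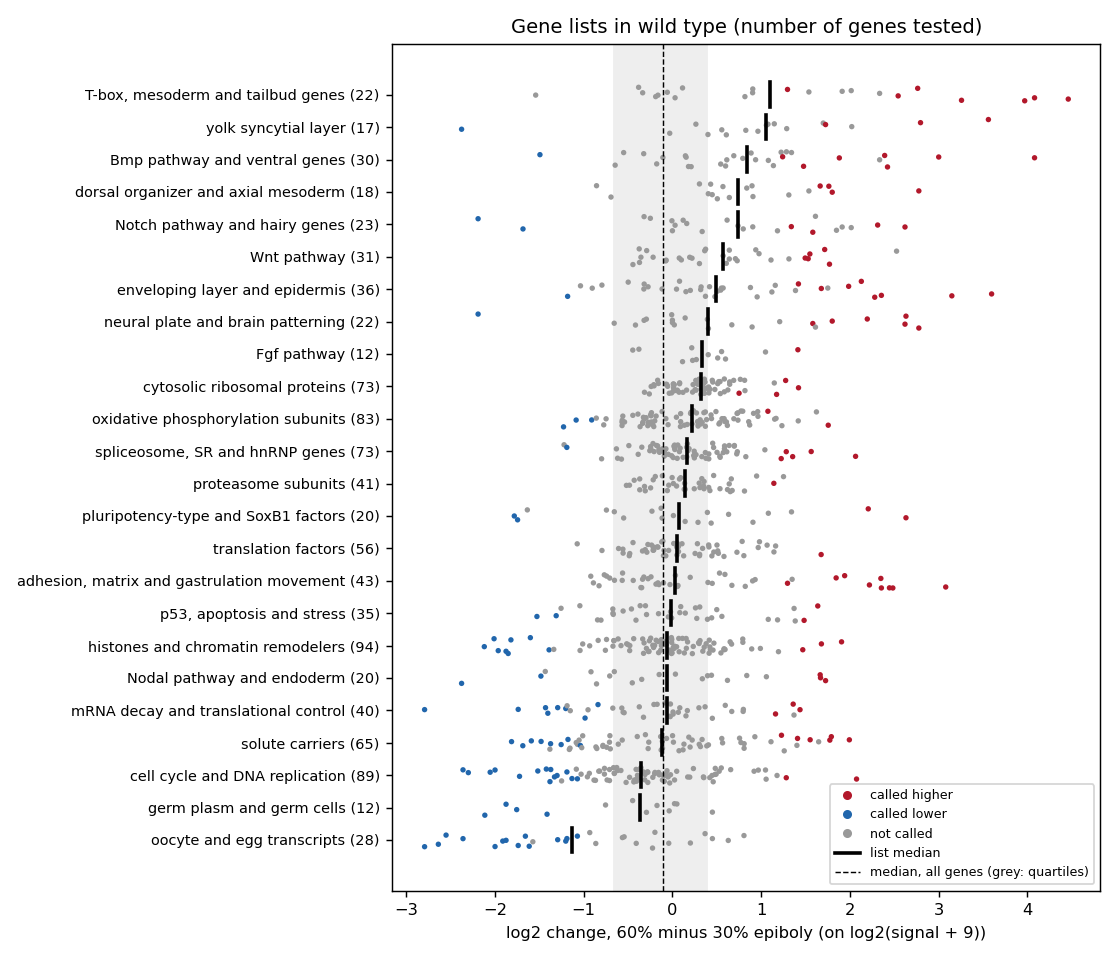
Log2 change from 30% to 60% epiboly for every tested gene of the lists with at least 10 tested members, 1 row per list ordered by median, with the number tested in brackets. Red points are called higher, blue called lower and grey not called; black bars are list medians, and the dashed line and grey band give the median and the middle 50% of all tested genes. The mesoderm list lies farthest right, with 7 red and no blue points, and the oocyte list farthest left, with 14 blue and no red points.

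At the other end of the plot of gene lists stood the transcripts of the oocyte and egg. Of 28 tested, 14 fell and 0 rose, 50% against the 8.91% of all genes that fell, and the median log2 change was -1.13 (-1.32 to -0.95 over the settings). The linker histone gene h1m, of oocytes and germ cells, had 2897 and 2418 at 30% and 620.4 and 823.8 at 60% epiboly (log2 change -1.88, adjusted p = 0.00887 by limma). The zinc-finger gene cth1, whose family binds AU-rich mRNA, had 1027 and 972.4 against 279.8 and 307.2 (log2 change -1.74, adjusted p = 0.0099). Both were still well above the low-signal limit at 60%. The kinase gene wee2, which holds back Cdk1 in oocytes, had 1276, 870.7, 256.6 and 257.2 (log2 change -2.00). The oocyte growth factor gene bmp15 (113.3, 54.4, 14.48 and 14.33), the meiotic kinase gene mos (105.4, 64.43, 20.7 and 19.44) and the Tudor gene tdrd5 (130.6, 124.4, 41.89 and 30.08) fell too and were named after their values were seen. The signals of bmp15 and mos were low on both 60% arrays. The fall was not shared by every member. The egg gene zar1 had 180.7 and 195.5 against 184.9 and 256.1 (log2 change 0.20, adjusted p = 0.749), and the mRNA-packaging gene ybx1 had 2442, 3297, 4072 and 3297 (0.37, adjusted p = 0.278). Once 1 array was removed, 9, 2 and 5 members fell.

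Germ plasm transcripts differed among themselves. Of 12 tested, 4 fell (33.3%, beside 8.91% of all genes) and 0 rose, with a median of -0.37 (-0.51 to -0.20 over the settings). The gene buc, whose product organises germ plasm in the oocyte, had 332.1 and 153.5 against 35.35 and 57.67 (log2 change -2.11, adjusted p = 0.0156 by limma). The Tudor gene tdrd7a had 458.2, 300.7, 141.1 and 75.66 (log2 change -1.75), and the Piwi gene piwil2 had 111.1, 155.2, 43.45 and 44.01 (-1.41). With h1m, these were the 4, and none overlapped between stages. The germ cell helicase gene ddx4, zebrafish vasa, had 296.1 and 450.7 against 405.4 and 340.7 (log2 change 0.02, adjusted p = 0.976). The gene nanos3 (190.4, 268.3, 192.1 and 138.7) did not pass either, and both genes overlapped between stages. With 1 array left out, 3, 0 and 1 members fell.

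Regulators of mRNA decay and translation fell in 8 of 40 tested cases (20%) and rose in 3 (7.5%). Among all genes 8.91% fell and 4.69% rose. The list median was -0.06 (-0.39 to 0.05 over the settings). The falls included btg4, cth1, the CCR4-NOT ligase gene cnot4b (451.6, 285.3, 143.9 and 113.2) and the m6A reader gene ythdf3 (206.3, 147.3, 53.31 and 68.06). The polyadenylation regulator gene cpeb1b (237, 222.1, 73.49 and 105.8) and the embryonic poly(A)-binding protein gene pabpc1l (360.3, 313.6, 140.4 and 141.7) fell by 1.29 and 1.2 on the log2 scale. None of these 4 overlapped between stages. The deadenylase gene cnot8 and the antiproliferative gene btg2, named after their values were seen, had log2 changes of -0.84 and -0.98. The risers were the decapping enzyme gene dcp2 (111, 99.62, 266.9 and 302.9; log2 change 1.36, adjusted p = 0.0457 by limma), the AU-rich element binding genes elavl1b (1.44) and zfp36l1a (1.16). The reader gene ythdf2 did not pass (490, 507.1, 725.4 and 645.4; adjusted p = 0.24). When 1 array was omitted, 2, 0 and 1 members fell and 0 rose.

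Cell cycle and DNA replication genes fell in 14 of 89 tested cases (15.7%) and rose in 2 (2.25%). Among all genes 8.91% fell and 4.69% rose. The median log2 change of the list was -0.35 (-0.49 to -0.23 over the settings). The embryonic cyclin gene ccna1 had 2003 and 1710 at 30% and 467.6 and 290.1 at 60% epiboly (log2 change -2.30, SE 0.357, adjusted p = 0.0067 by limma). The survivin gene birc5b, for a member of the chromosomal passenger complex, had 464.6, 328.2, 73.7 and 103 (log2 change -2.05, adjusted p = 0.00832). The mitotic cyclin gene ccnb1 had 2713, 2223, 1185 and 970.3 (log2 change -1.19, adjusted p = 0.0149). All 3 were bright at 30%, and their stages lay apart. The geminin gene gmnn, for an inhibitor of origin licensing, had 665.9, 582.1, 193.8 and 285.1 (log2 change -1.37). Origin recognition genes were also among the falls: orc6 (-1.52), orc2 (-1.42) and orc1 (-1.30), as were gins2 (-1.72), the checkpoint kinase genes ttk (-1.38) and chek2 (-1.33), ccnb2 (-1.13) and cdc20 (-1.07), all of them named after their values were seen. The risers were the cyclin F gene ccnf (70.86, 127.8, 474.5 and 392.1; log2 change 2.08, adjusted p = 0.0123) and the mitotic kinesin gene kif11 (212.3, 188.5, 496.9 and 502.3; 1.28, adjusted p = 0.0224). The replication clamp gene pcna, the brightest of those named here, stood at 3817, 4072, 3722 and 3420 and did not pass (adjusted p = 0.544). In the fits lacking 1 array, 5, 1 and 3 members fell.

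Chromatin genes fell in 8 of 94 tested cases, 8.51% beside the 8.91% of all genes, and rose in 3, 3.19% beside 4.69%. The remodeler gene smarca2 had 217.6, 144.6, 31.33 and 36.67 (log2 change -2.12, adjusted p = 0.013 by limma), and the Polycomb gene bmi1b had 113.8, 66.12, 14.23 and 22.87 (-1.82, adjusted p = 0.0158). The DNA methyltransferase gene dnmt3ba rose (144.4, 251.9, 687.5 and 580.4; log2 change 1.68, adjusted p = 0.0233), as did hmgn3 (1.91) and chd2 (1.47). The deacetylase gene hdac1 (2760, 3206, 2850 and 2922) had overlapping stages. Chromatin falls numbered 5, 0 and 1 and rises 2, 0 and 0 with 1 array left out. Solute carriers fell in 8 (12.3%) and rose in 6 (9.23%) of 65 tested cases, beside 8.91% and 4.69% of all genes. Amino acid carriers were among the risers: slc38a2 (22.93, 25.28, 160.1 and 93.7), slc38a4 (39.41, 43.17, 168.2 and 157.7), slc38a5b (67.39, 42.38, 158.6 and 156.4) and slc7a3a (58.52, 15.89, 118.5 and 148.9), with log2 changes of 1.99, 1.77, 1.41 and 1.79. The stages of each were apart. The other risers were slc20a1b and slc34a2b, with log2 changes of 1.23 and 1.55. The gene slc3a2b did not pass (adjusted p = 0.0605 by limma). The monocarboxylate carrier gene slc16a3b fell from 1164 and 1362 to 382.6 and 387.1 (log2 change -1.69, adjusted p = 0.017). Of the solute carriers, none fell and 0, 0 and 1 rose with 1 array left out.

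In the lists of basic cell functions a smaller share was called than the 13.6% of all genes, though not for rises in every list. Of 73 tested genes for cytosolic ribosomal proteins, 4 rose and 0 fell, 5.48% beside the 4.69% of all genes that rose. Their median log2 change was 0.32, beside -0.11 over all genes. The largest of these rises was that of rpl5a, with 445.1 and 406.1 against 1100 and 1210 (log2 change 1.42, adjusted p = 0.0163 by limma). Oxidative phosphorylation subunits rose in 2 (2.41%) and fell in 3 (3.61%) of 83 tested cases. Proteasome subunits rose in 1 of 41 (2.44%), and translation factors in 1 of 56 (1.79%). Splicing genes rose in 5 (6.85%) and fell in 1 (1.37%) of 73 tested cases, beside 4.69% and 8.91% of all genes. Among the risers were srsf1b (57.65, 90.14, 235.8 and 226.9) and hnrnpul1 (60.32, 132.9, 449.4 and 366.1). The elongation factor gene eef1a1l1, near the top of the signal range, stood at 6551, 6551, 5906 and 6551. The arrays share their quantiles, so a probe set of equal rank takes an equal value, and these signals say little about change. Genes of p53, apoptosis and stress rose in 2 and fell in 2 of 35 tested cases, 11.4% called beside 13.6% of all genes. The chaperone gene hspa5 of the endoplasmic reticulum fell (1786, 1343, 480.8 and 587.9; log2 change -1.53, adjusted p = 0.0107). The hypoxia-inducible factor gene hif1al rose (173.1, 246.4, 728 and 602.4; log2 change 1.64). Of the later tissues' markers, 3 of 28 on the array were tested, and 1, the leukocyte actin-bundling gene lcp1, rose from 139.8 and 152.2 to 899.5 and 638.9 (log2 change 2.31, adjusted p = 0.0136). Few of these calls stood with 1 array left out. Ribosomal rises numbered 2, 0 and 0, oxidative phosphorylation falls 2, 0 and 0, stress gene rises 2, 0 and 0 and falls 1, 0 and 1, and the call of lcp1 stood in the last of the 3 fits alone. No member of the proteasome, splicing and translation factor lists passed in any of them, and no oxidative phosphorylation gene rose.

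The same interval was measured in MZspg embryos on arrays of their own. Of the probe sets that rose in WT, 404 of 413 (97.8%) had the same sign in MZspg, and of those that fell, 595 of 600 (99.2%). The share was 79.6% over all tested probe sets. On the MZspg arrays 335 of the risers and 460 of the fallers were called in the same direction. These calls share 1 estimate of spread with the WT calls, so they are not an independent repeat. The share called in MZspg over all tested probe sets is not given here for comparison. The difference of the stage change between genotypes was tested as an interaction, and 0 probe sets passed (lowest adjusted p = 0.101 by limma), with 638 at an unadjusted p under 0.05. Without replicate 1 of MZspg at 60% epiboly 54 passed, and 0 or 1 without any other array.

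**Figure D5:**
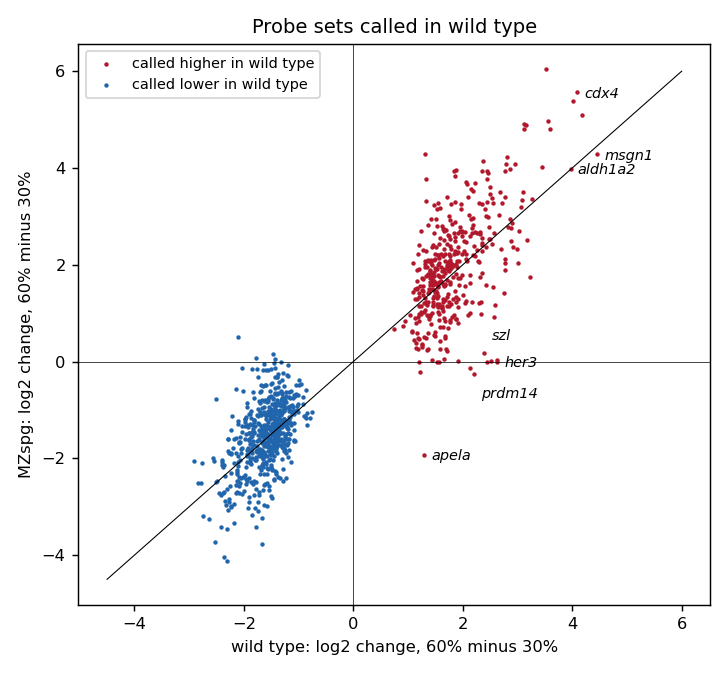
Log2 change from 30% to 60% epiboly in MZspg (vertical axis) against that in wild type (horizontal axis) for the 1013 probe sets called in wild type, red where higher and blue where lower at 60%, with the line of equality. Most points lie in the quadrants of equal sign; apela lies below 0 in MZspg, and her3, prdm14 and szl lie near 0.

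In the plot of both genotypes 14 of the 1013 probe sets had the opposite sign or no change in MZspg. Among genes called in WT, the smallest interaction p was that of apela, which had 701.2 and 729.5 at 30% and 214.2 and 154.5 at 60% in MZspg (log2 change -1.92 there against 1.30 in WT, unadjusted p = 2.27e-05 and adjusted p = 0.101 by limma). The gene her3 was empty on all 4 MZspg arrays, and prdm14 was empty on 3 and at 3.065 on the other. The gene szl had 76.3, 69.17, 83.32 and 84.12 in MZspg, a log2 change of 0.18 there against 2.39 in WT. These genes had the smallest interaction p among the genes called in WT together with zeb2a and cnksr2b, and none passed the adjustment. They were looked up for that reason.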

How the data were processed

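The deposited table holds linear intensities, 1 column for each of the 8 arrays and 1 row per probe set. MAS5 was used by the authors, as the submitters' processing notes state, and the design text names Genedata Expressionist Analyst. The cells with a value share nearly the same quantiles on all arrays of the deposited intensities. How they were made equal, and why cells were left empty, is not given in the sources used here. Cells without a value made up 17.3% of the table and 0.936% of the tested WT cells, and took the value 8.345, the 10th percentile.

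The array has 12477 probe sets with 30 controls. By the platform annotation 9206 of the others name 1 gene, 104 several and 3137 none, and for 9138 the gene ID was present in the gene table used here, with no symbol changed. The brightest probe set over the WT arrays stood for a gene.

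Signals were tested as log2(signal + 9) with limma 3.58.1 in R 4.3.3 (lmFit, eBayes with trend, 1 mean per group over 8 arrays, 4 residual and 7.674 prior degrees of freedom), with Benjamini-Hochberg adjustment. Python 3.11.15 with pandas 2.3.3, numpy 2.4.6 and matplotlib 3.10.9 made tables and figures. In simulated data on 7375 probe sets, 10, 43, 50 and 50 of 50 changes of 1, 2, 3 and 4 log2 units were recovered, with 12 false calls among 165. The simulated noise was normal, independent and of equal spread on all arrays, and few probe sets changed. It held no array shifts and no stage-like difference between duplicates, so it checks the procedure and does not give the sensitivity in these data. The number of arrays limits the precision.

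Named genes were the 15 higher and 15 lower with the largest change among called, non-overlapping genes, the anchor genes of each list, up to 6 called members per list and direction by adjusted p, and pou5f3. The members and lists were chosen with earlier results of these data known, and lists share genes. They are described by counts and medians, with no set test. Alternatives covered the pseudocount, the filter, empty cells, centring, the variance prior, a replicate block, the spike-in term and each array left out.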

Additional observations from a re-analysis of the deposited data

How the results depend on the processing

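With 1 array left out, the number of probe sets called ran from 0 to 1196, of those higher at 60% from 0 to 484, of those lower from 0 to 716 and of genes from 0 to 842. The 0 was reached without WT 30% replicate 1. The genotype interaction ran from 0 to 54 probe sets, the latter without MZspg 60% replicate 1, and 3 passed with the pseudocount at the 40th percentile. Without a filter on low signal 211 probe sets (96 higher, 115 lower, 119 genes) were called. With the spike-in term 655 were called, of which 315 were lower and 51.9% higher beside 40.8% otherwise, in 431 genes. Without both arrays of bright spike-ins 110 were called (82 higher, 28 lower, 73 genes). At an adjusted p under 0.01 there were 93 (56 higher, 37 lower, 63 genes). Leaving out arrays also leaves fewer samples to fit. Other causes were not tested. The other settings, among them centring added after seeing the data (1137 calls, 548 higher and 589 lower), gave counts within 1.5 times of those reported. Replicate numbers did not pair the samples: the correlation of replicate differences between the WT stages was -0.333, and with a replicate block 825 probe sets were called. Of 648 list medians under the alternatives, 602 moved by less than the replicate spread and 46 by more. The medians of 9 of the 26 lists lay on both sides of 0 over the settings. Of 4357 values of named genes, 3639 kept direction and call, 696 lost the call and 22 gained it.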

Other observations

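The largest change that was not called belonged to a probe set without a gene symbol, at 2614 and 1963 on the 30% arrays and at 1104 and empty on the 60% arrays (log2 change -4.03, adjusted p = 0.0541 by limma). Its empty cell was filled with the low value although the probe set is bright, so the size of this change comes from the fill. The nuclear receptor gene nr0b2a, looked up after its values were seen, had 163.4 and 510.2 at 30% and 1472 and 1586 at 60% epiboly (log2 change 2.36, adjusted p = 0.0589). Of the 1013 called probe sets, 220 carry no gene symbol and 8 carry several, and they are counted but not described by name.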
